A study of Mus musculus with 4 samples.

Results

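The genes described here encode 10 receptors, or receptor subunits, through which blood cells read cytokines and growth factors: *Csf1r*, *Csf3r*, *Epor*, *Csf2ra*, *Il3ra*, *Csf2rb*, *Csf2rb2*, *Il6ra*, *Il6st* and *Il1r1*. Their rows were taken from the deposited table by gene symbol, and all 10 were found among its 39186 genes. RNA was sequenced from LSK cells sorted from fetal liver, a lineage-negative fraction positive for Sca-1 and c-Kit that holds hematopoietic stem cells and multipotent progenitors. There were 2 *Pich*-KO and 2 *Pich*-WT samples of strain C57BL/6, taken from E14.5 embryos. The *Pich*-KO mice carry a TALEN-made deletion of 10 bases at the start of exon 2 of *Pich*, an X-linked gene that encodes a DNA translocase and is listed in the table as *Ercc6l*. Both groups went through the same LSK sort, and neither received a treatment that the labels name. How many embryos or livers went into a library is not given in the sources used here. Whether the spread between libraries is that between embryos is therefore unknown. The p-values concern these libraries only, and those of limma also borrow variance from other genes.

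Most of these receptors belong to the class I cytokine receptor family, whose chains have no kinase of their own and signal through bound JAK kinases to STAT factors. They work as pairs: *Epor* and *Csf3r* form homodimers, the alpha chains *Csf2ra* and *Il3ra* bind GM-CSF and IL-3 and then recruit a beta chain, and *Il6ra* binds IL-6 and recruits gp130, the product of *Il6st*. *Csf1r*, the M-CSF receptor, is instead a receptor tyrosine kinase, and *Il1r1* signals through MyD88 and IRAK kinases.

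The libraries held 14703215 to 20933919 reads on genes, and values below are normalized counts, that is, reads divided by one size factor per sample. *Pich*-WT sample 2 had 0 reads on 4 Y-linked genes, on which the other 3 libraries had 1607 to 2848 reads. The *Pich*-WT libraries thus differ in Y-linked RNA, and any part of embryo sex in the comparisons was not tested. The normalized count of *Ercc6l* was 1142 and 1232 in *Pich*-KO samples 1 and 2 and 772 and 661 in *Pich*-WT samples 1 and 2; a deletion this small leaves a transcript that is counted, so this level does not check the labels. Of 12 LSK markers, *Ly6a* (Sca-1) was higher in *Pich*-KO by limma, 5 were lower and 6, *Kit* among them, did not pass. The 5 lower markers were *Procr* (log2 fold change -2.88), *Hlf* (-2.37), *Mecom* (-2.10), *Mycn* (-1.08) and *Slamf1* (-0.90). Markers listed for other cell types were present and moved with genotype, in both directions. Whether this RNA came from cells outside the gate or from LSK cells was not tested. The summed normalized count of 15 macrophage markers was 1986 and 2019 in *Pich*-KO against 47741 and 49508 in *Pich*-WT, that of 13 erythroid markers 29615 and 32871 against 163289 and 124331, and that of 8 endothelial markers 2656 and 1562 against 31106 and 20880. Sums of megakaryocyte, hepatoblast and lymphoid markers were also lower in *Pich*-KO. Other sums were higher. That of 16 granulocyte and monocyte markers was 68345 and 129339 against 23926 and 25051, of which *Mpo* alone held 54647 and 90492 against 10351 and 12533. That of 7 mast cell and basophil markers was 572 and 812 against 183 and 144, of which *Cpa3* held 498 and 437 against 134 and 96. The sum of 8 stromal markers was 1717 and 1097 against 1013 and 822.

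Among the receptor genes, 4 were lower in the *Pich*-KO libraries and none was higher. *Csf2rb2* was 3.07-fold and *Csf1r* 2.51-fold lower, *Epor* and *Csf2ra* fell by smaller amounts, whereas *Csf2rb*, *Csf3r*, *Il6ra*, *Il6st*, *Il3ra* and *Il1r1* did not pass the test. The test was limma on the log2 of the normalized count plus 1, run on the 32428 genes whose mean reached 1, and a gene was called where its Benjamini-Hochberg adjusted p was under 0.05. Over all these genes 9.6% were called lower and 7.58% higher in *Pich*-KO. This set includes genes with few reads. Among the genes with at least 10 reads in every sample, limma called 3135 of 13924 lower and 2937 higher, and 4 receptors lower. The 9.6% and 7.58% set beside the lists below come from the wider set. At an unadjusted p under 0.05 limma had 5 receptors lower and 0 higher, beside 15% of all genes lower and 13.7% higher. With an absolute log2 fold change of at least 1 also required, 2 receptors were lower and 0 higher, beside 6.91% and 2.78% of all genes. Both *Pich*-KO values lay below both *Pich*-WT values for 6 of the 10 receptors and above them for 0, where the same pattern held for 27.2% and 28.9% of all genes. The median log2 fold change of the 10 receptors was -0.51, beside 0.02 over all genes tested. In bulk RNA, fewer cells of a type and less RNA per cell cannot be told apart, and this applies to every value that follows. With 2 samples against 2, an exact permutation test of a single gene cannot go below p = 0.333, so the adjusted p-values depend on how limma borrows variance from other genes.

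**Figure D1:**
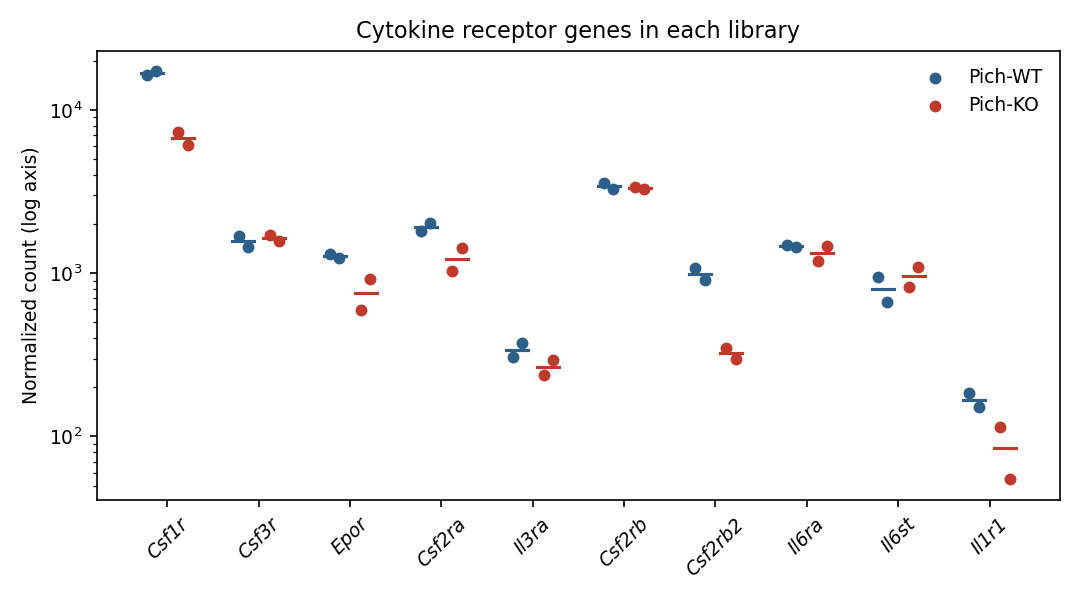
Normalized count of each receptor gene in each library on a log axis, with 2 *Pich*-WT (blue) and 2 *Pich*-KO (red) samples per gene and a bar at the group mean. The groups are apart for *Csf1r*, *Epor*, *Csf2ra*, *Il3ra*, *Csf2rb2* and *Il1r1*, lower in *Pich*-KO each time, and overlap for *Csf3r*, *Csf2rb*, *Il6ra* and *Il6st*.

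The calls also depended on the variance model, since limma without a trend of variance on the mean called 0 genes (7377 had an unadjusted p under 0.05), with an adjusted p of 0.0917 for *Csf2rb2* and 0.106 for *Csf1r*. Leaving out one library mattered too. With 3 libraries limma called 0 of the 32428 genes whichever sample was left out, although 5757 to 8599 genes had an unadjusted p under 0.05. The same 3 libraries were therefore also compared by the quasi-likelihood method of edgeR on recovered reads, added after the limma result had been seen. Each such fit sets 1 library against 2, so that its spread comes from the remaining group and the lone library is assumed to vary like it, and its p-values are no measure of stability. On all 4 libraries edgeR called 4 receptors lower and 0 higher, where it called 20.7% of the genes it tested lower and 18.6% higher. Without *Pich*-WT sample 2 it called 2 receptors lower and 0 higher, beside 14.1% and 9.62% of genes. Without *Pich*-KO sample 1 it called 5 lower and 1 higher, beside 21.4% and 20.2%.

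In the wild-type libraries the receptors covered a wide range of levels. These libraries also held macrophage and erythroid marker RNA, so a level is that of the library and need not be that of LSK cells alone. Levels are compared between genes only as normalized counts per kilobase of annotated gene length. *Csf1r* stood first at 3436 ± 138 per kilobase (SD, n = 2), a level above that of 99.5% of the genes tested. *Csf2ra* followed at 1040 ± 90.1, *Epor* at 638 ± 24.2, *Csf2rb* at 467 ± 27.5 and *Csf3r* at 434 ± 44.3 per kilobase. *Csf2rb* and *Csf3r* overlapped between samples, so their order is not settled. Lower levels were those of *Csf2rb2* at 209 ± 26.5, *Il6ra* at 169 ± 2.46, *Il3ra* at 114 ± 15.5 and *Il6st* at 72.2 ± 17.8 per kilobase, and *Il1r1* was last at 26.3 ± 3.63. By coding length in place of annotated length 7 of the 10 places changed. *Il6ra*, whose annotated length is 8642 bases and coding length 1380 bases, went from number 7 to number 4, and *Epor* went from number 3 to number 5, below *Csf2rb*. *Csf1r*, *Csf2ra* and *Il1r1* held their places. In the *Pich*-KO libraries *Csf1r* remained first, at 1369 ± 168 per kilobase, *Csf2rb2* went from number 6 to number 9, and *Csf3r*, *Csf2rb* and *Epor* overlapped with one another, as did *Il3ra* and *Il6st*.

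*Csf1r* (ENSMUSG00000024621, GRCm38 chr18:61105572-61132149, plus strand) encodes the receptor for M-CSF and IL-34, which drives the monocyte and macrophage lineage. Its normalized count was 7268 and 6111 in *Pich*-KO samples 1 and 2 and 16306 and 17259 in *Pich*-WT samples 1 and 2. Both *Pich*-KO libraries were under every wild-type library, and *Csf1r* was 2.51-fold lower. The limma log2 fold change was -1.33 ± 0.10 (SE), with an adjusted p = 0.000111. With any one library left out edgeR gave values of -1.17 to -1.43. The table does not separate strands, and *Hmgxb3* overlaps *Csf1r* on the opposite strand. *Hmgxb3* had 1063 and 985 reads in *Pich*-KO, beside 6664 and 5376 of *Csf1r*. In *Pich*-WT it had 855 and 712, beside 20865 and 17259. Whether any of its reads were counted for *Csf1r* was not tested.

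The macrophage markers fell further than *Csf1r*. All 15 were called lower in *Pich*-KO, with log2 fold changes from -1.96 for *Cd68* to -7.41 for *Fcna* and a median of -4.84, each larger in size than that of *Csf1r*. Within a library, the normalized count of *Csf1r* was 2.46 and 2.49 times that of *Adgre1* (F4/80) in *Pich*-WT and 26.7 and 29.9 times in *Pich*-KO. Relative to *Irf8*, a monocyte lineage factor that was not called, *Csf1r* was instead lower in *Pich*-KO, at 1.01 and 0.867 times its normalized count, with 1.88 and 2.82 times in *Pich*-WT. As a percentage of the summed macrophage markers it was 34.2% and 34.9% in *Pich*-WT and 366% and 303% in *Pich*-KO. *Vsig4* had no read in *Pich*-KO sample 2; the other 14 macrophage markers had reads in every library. The part of macrophage RNA in the fall of *Csf1r* was not tested. *Csf1*, which encodes a *Csf1r* ligand, was at 175 and 177 in *Pich*-KO, with 167 and 122 in *Pich*-WT, and its log2 fold change of 0.30 did not pass limma (adjusted p = 0.48).

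**Figure D2:**
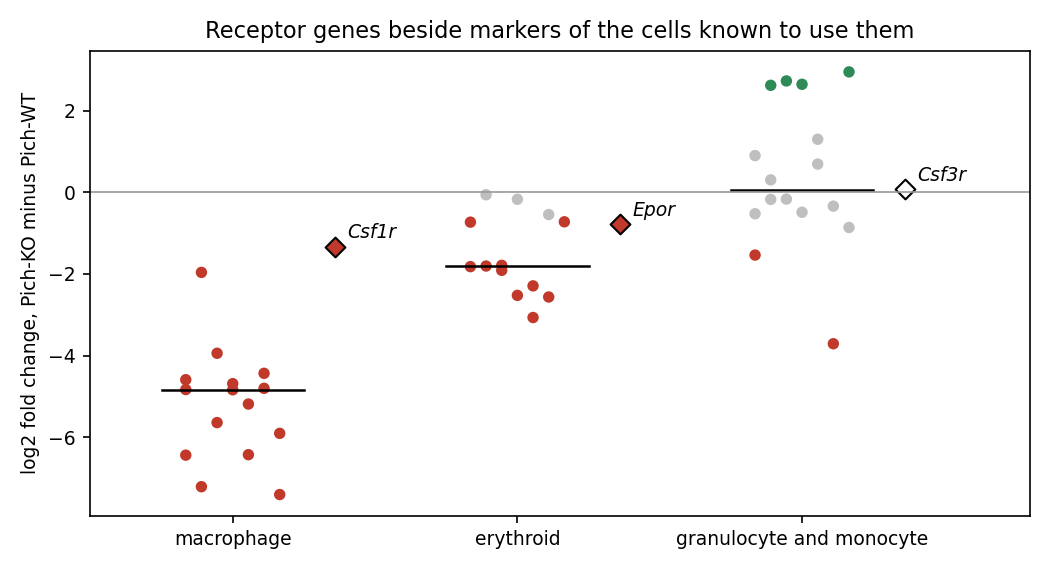
Log2 fold change, *Pich*-KO minus *Pich*-WT, of each macrophage, erythroid, and granulocyte and monocyte marker (circles, with a bar at the list's median) and of 1 receptor gene beside each list (diamond). Red marks genes called lower, green genes called higher and grey or white genes that did not pass; *Csf1r* at -1.33 lies above all 15 macrophage markers, *Epor* at -0.78 above most erythroid markers, and *Csf3r* at 0.08 between granulocyte markers that moved in both directions.

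*Epor* (ENSMUSG00000006235, chr9:21958897-21963506, minus strand) encodes the erythropoietin receptor, which erythroid progenitors need to survive and mature. Its normalized count was 592 and 918 in *Pich*-KO, with 1302 and 1234 in *Pich*-WT. The groups did not overlap, but *Pich*-KO sample 2 lay nearer to wild type than *Pich*-KO sample 1 did. *Epor* was 1.68-fold lower in *Pich*-KO, with a log2 fold change from limma of -0.78 ± 0.20 (SE; adjusted p = 0.0335). The call was lost with a pseudocount of 0.1 (adjusted p = 0.071, limma) and with no filter on the mean (adjusted p = 0.0973, limma). Without *Pich*-KO sample 1 the limma log2 fold change was -0.46, and edgeR's adjusted p was 0.0736 without *Pich*-WT sample 1 and 0.0542 without *Pich*-WT sample 2.

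Of the 13 erythroid markers, 10 were called lower and 0 higher, with a median log2 fold change of -1.81. *Klf1*, the erythroid Krüppel-like factor, was at 1179 and 1598 in *Pich*-KO, with 2461 and 2107 in *Pich*-WT, which limma called lower (log2 fold change -0.73, adjusted p = 0.0179). The ratio of *Epor* to *Klf1* within a library was 0.502 and 0.575 in *Pich*-KO, with 0.529 and 0.586 in *Pich*-WT, so the groups overlapped. Against the summed erythroid markers, which hemoglobin transcripts dominate, *Epor* was 2% and 2.79% in *Pich*-KO, with 0.797% and 0.993% in *Pich*-WT. The part of erythroid RNA in the fall of *Epor* was not tested. *Epo*, the ligand, had normalized counts of 2.18 or less in every library.

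*Csf3r* (ENSMUSG00000028859, chr4:126024550-126044440, plus strand) encodes the G-CSF receptor of the neutrophil lineage. It was at 1724 and 1572 in *Pich*-KO, with 1680.2 and 1454 in *Pich*-WT. The groups overlapped, and the log2 fold change was 0.08 with a 95% interval of -0.21 to 0.36 (adjusted p = 0.762, limma). Among the 16 granulocyte and monocyte markers 4 were called higher, the granule protease genes *Ctsg* and *Prtn3*, *Mpo* (myeloperoxidase) and *Ly6c2*, with log2 fold changes of 2.63 to 2.96, and 2, *Mmp9* and *Ccr2*, were called lower. The median of the list was 0.07. Among markers that did not pass, the neutrophil granule genes *Ltf* (-0.86), *Camp* (-0.52) and *Ngp* (-0.49) and *S100a9* (-0.16) had negative log2 fold changes. So did *F13a1* (-0.17) and *Ly6g* (-0.34), the latter near the floor. *Ms4a3* (1.30), *Elane* (0.90), *Mmp8* (0.69) and *S100a8* (0.31) had positive ones. For *Ltf*, *Camp*, *Ngp*, *S100a8* and *S100a9*, *Pich*-KO sample 1 lay below both *Pich*-WT values and *Pich*-KO sample 2 above both. *S100a9* was at 318 and 2553 in *Pich*-KO, with 1058 and 967 in *Pich*-WT. The ratio of *Csf3r* to *Mpo*, one of the called markers, was within a library 0.0316 and 0.0174 in *Pich*-KO, with 0.162 and 0.116 in *Pich*-WT. As a percentage of the summed list *Csf3r* was 2.52% and 1.22% in *Pich*-KO, with 7.02% and 5.8% in *Pich*-WT, a sum to which *Mpo* adds most. *Csf3* was at 1.56 or less in each library and was not tested.

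The receptors for GM-CSF and IL-3 share beta chains. *Csf2rb* (ENSMUSG00000071713, chr15:78325752-78353847, plus strand) encodes the common beta chain of the GM-CSF, IL-3 and IL-5 receptors. *Csf2rb2* (ENSMUSG00000071714, chr15:78282507-78305721, minus strand) lies next to it and encodes a second beta chain, found in mice, that serves IL-3 only. The genes are close copies. Over the coding sequences of their longest coding transcripts in GENCODE M21, 2503 of 2628 aligned bases were identical (95.2%). The stretch of 90 aligned coding bases in which they differ most is shown to let the copies be told apart, with the 16 differing bases in capitals.
*Csf2rb*: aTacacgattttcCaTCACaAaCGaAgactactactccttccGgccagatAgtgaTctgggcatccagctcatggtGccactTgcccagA
*Csf2rb2*: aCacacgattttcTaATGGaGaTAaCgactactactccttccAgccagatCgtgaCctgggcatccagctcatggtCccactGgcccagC
Of the 50-base windows of the *Csf2rb2* transcript, 19% occur whole in a *Csf2rb* transcript, and of the 100-base windows 7.2%. Reads from such windows cannot be placed from sequence alone, and how they were counted is not given in the sources used here, so both counts are uncertain to that extent.

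*Csf2rb2* had the largest change of the 10 receptors. Its normalized count was 346 and 300.1 in *Pich*-KO, with 1081 and 903 in *Pich*-WT. Both *Pich*-KO libraries lay far under the wild-type range, and the gene was 3.07-fold lower, at -1.61 ± 0.16 (SE) on the log2 scale by limma, adjusted p = 0.000485. With any one library left out edgeR gave values of -1.47 to -1.71. *Csf2rb* was at 3369 and 3269 in *Pich*-KO, with 3541 and 3258 in *Pich*-WT. Its groups overlapped, and its log2 fold change of -0.03 had a 95% interval of -0.25 to 0.19 (adjusted p = 0.869, limma).

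Within each library, *Csf2rb2* took 9.31% of the reads on the pair in *Pich*-KO sample 1 (95% Wilson interval 8.38% to 10.3%) and 8.41% in *Pich*-KO sample 2 (7.49% to 9.43%). In *Pich*-WT it took 23.4% in sample 1 (22.3% to 24.5%) and 21.7% in sample 2 (20.5% to 23%). These intervals cover counting error only. The mean share was 22.5% ± 1.19 in wild type and 8.86% ± 0.636 in the knockout (SD, n = 2 each), a difference of -13.7 percentage points that no size factor can change. The exact two-sided permutation p was 0.333, the smallest this design allows. With any one library left out the difference was -12.8 to -14.5 points.

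**Figure D3:**
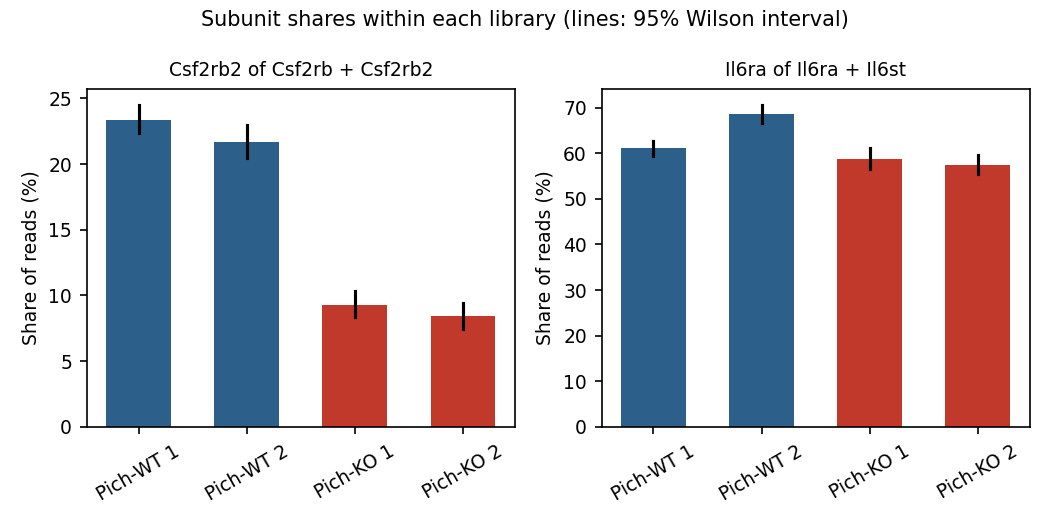
Share of reads (%) within each library that fell on *Csf2rb2* among reads on *Csf2rb* and *Csf2rb2* (left) and on *Il6ra* among reads on *Il6ra* and *Il6st* (right), for *Pich*-WT (blue) and *Pich*-KO (red) samples, with 95% Wilson intervals as lines. The *Csf2rb2* share is 21.7% to 23.4% in *Pich*-WT and 8.41% to 9.31% in *Pich*-KO; the *Il6ra* share in *Pich*-WT sample 1, 61.1%, lies close to the *Pich*-KO values of 57.5% and 58.8%.

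*Csf2ra* (ENSMUSG00000059326, chr19:61224402-61228418, minus strand) encodes the alpha chain that binds GM-CSF. Its normalized count was 1033 and 1423 in *Pich*-KO, with 1804 and 2040 in *Pich*-WT. The groups did not overlap, and *Csf2ra* was 1.57-fold lower, with a limma log2 fold change of -0.66 ± 0.17 (SE; adjusted p = 0.0292). As with *Epor*, *Pich*-KO sample 1 was the lower of the pair. The limma value without it was -0.43, and the call was lost with a pseudocount of 0.1 (adjusted p = 0.0614, limma), with no filter on the mean (adjusted p = 0.0845, limma) and, by edgeR, without *Pich*-WT sample 2 (adjusted p = 0.114).

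*Il3ra* (ENSMUSG00000068758, chr14:14346275-14356011, plus strand) encodes the IL-3 binding alpha chain. It was at 238 and 294 in *Pich*-KO, with 307 and 372 in *Pich*-WT. The *Pich*-KO values were both lower, by a margin within the spread of the samples, and the log2 fold change of -0.35 had a 95% interval of -0.81 to 0.11 (adjusted p = 0.303, limma). With any one library left out edgeR gave -0.17 to -0.48. Of the IL-3 receptor genes, *Csf2rb2* was thus called lower and *Il3ra* and *Csf2rb* were not. Whether the changes of *Csf2rb2* and *Csf2ra* differ from that of *Il3ra* was not tested. The ligand genes *Csf2* and Il3 were not analysed here, and *Il5* had normalized counts of 2.27 or less in each library.

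Promoter sequence was available from RefSeq (GRCm38.p6) for 8 of the 10 genes. The 250 bases upstream of the transcription start are shown for *Csf2rb2*, *Epor* and *Csf2ra*, the called genes with an entry, because the data show lower transcript levels for them together. Each runs 5′ to 3′ on the gene's own strand. Capitals mark letters that match, on either strand, one of 5 motifs: the GATA motif, spelled AGATAA or AGATAG or TGATAA or TGATAG, the PU.1 motif (GAGGAA), C/EBP (TTGCNNAA), the STAT element GAS (TTCNNNGAA) and the interferon element ISRE core (AAANNGAAA). Adjacent matches run together in the capitals, and the GATA, PU.1 and GAS matches printed do not overlap one another.
*Csf2rb2*, chr15:78305722-78305971: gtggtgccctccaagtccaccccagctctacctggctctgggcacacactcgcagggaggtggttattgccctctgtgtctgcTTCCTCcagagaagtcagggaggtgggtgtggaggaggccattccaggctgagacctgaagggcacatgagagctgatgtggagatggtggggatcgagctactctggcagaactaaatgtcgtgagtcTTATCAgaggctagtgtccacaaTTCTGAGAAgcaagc
*Epor*, chr9:21963577-21963826: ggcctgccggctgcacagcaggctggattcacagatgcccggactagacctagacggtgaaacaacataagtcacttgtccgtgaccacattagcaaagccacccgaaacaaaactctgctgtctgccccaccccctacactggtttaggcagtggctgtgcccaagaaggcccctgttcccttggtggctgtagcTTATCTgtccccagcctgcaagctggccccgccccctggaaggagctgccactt
*Csf2ra*, chr19:61228419-61228668: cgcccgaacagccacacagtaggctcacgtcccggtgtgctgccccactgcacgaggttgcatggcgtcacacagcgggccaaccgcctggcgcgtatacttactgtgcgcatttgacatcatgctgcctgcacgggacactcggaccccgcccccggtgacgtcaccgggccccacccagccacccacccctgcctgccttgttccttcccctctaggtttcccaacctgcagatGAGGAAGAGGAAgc
*Csf2rb2* held a GATA match starting 38 bases before the start site, a PU.1 match at 167 and a GAS match at 15. *Epor* held a GATA match at 54 and *Csf2ra* adjoining PU.1 matches at 14 and 8. Among the genes that were not called, *Il6ra* and *Il3ra* also held a GATA match, *Il6ra* and *Csf3r* a PU.1 match, and *Il3ra* and one of the *Il1r1* promoters a C/EBP match. No ISRE core letters were found in these windows. Of 32851 promoters of the same length, 26.5% held a GATA match, 23.2% a PU.1 match, 9.56% a C/EBP match, 7.02% a GAS match and 9.37% an ISRE core match. A match is a description of the letters and says nothing of binding in these cells.

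Factors known to act on such genes did not move as one. Of 13 hematopoietic lineage factors, 7 were called lower and 2 higher, beside 9.6% and 7.58% of all genes tested. The largest falls were those of *Cebpb* (-3.31), *Cebpa* (-1.33), *Gfi1* (-1.13) and *Zfpm1* (-0.91), all log2 fold changes, and *Runx1* (1.46) and *Myb* (0.57) were higher. *Cebpb* itself was uneven in wild type, at 1390.3 in sample 1 but 417 in sample 2, while both *Pich*-KO samples were low at 79.6 and 72.8. *Spi1*, which encodes PU.1, was at 6614 and 6775 in *Pich*-KO, with 6316 and 5918 in *Pich*-WT, and its log2 fold change of 0.13 did not pass limma (adjusted p = 0.352).

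The levels of neither gene of the IL-6 receptor pair separated by genotype. *Il6ra* (ENSMUSG00000027947, chr3:89864059-89913196, minus strand), the IL-6 binding chain, was at 1180.1 and 1473 in *Pich*-KO, with 1477 and 1447 in *Pich*-WT. Its log2 fold change was -0.15 with a 95% interval of -0.47 to 0.17 (adjusted p = 0.548, limma). *Il6st* (ENSMUSG00000021756, chr13:112464070-112510086, plus strand), which encodes the gp130 chain shared by IL-6, IL-11, LIF and oncostatin M, was at 826 and 1089 in *Pich*-KO, with 941 and 662 in *Pich*-WT. Its groups overlapped as well, with a log2 fold change of 0.26 and an interval of -0.21 to 0.74 (adjusted p = 0.472, limma). Without *Pich*-KO sample 1 edgeR called *Il6st* higher, at a log2 fold change of 0.47 (adjusted p = 0.0447).

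*Il6ra* took 58.8% and 57.5% of the reads on the pair in *Pich*-KO, with 61.1% and 68.6% in *Pich*-WT. Both *Pich*-KO shares thus lay below both *Pich*-WT shares. The difference of the means was -6.68 percentage points (exact two-sided permutation p = 0.333, the smallest this design allows). The Wilson intervals of *Pich*-KO sample 1 (56.6% to 61.1%) and *Pich*-WT sample 1 (59.4% to 62.8%) overlapped, and the difference was -2.92 points without *Pich*-WT sample 2 and -10.4 points without *Pich*-WT sample 1.

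*Il1r1* (ENSMUSG00000026072, chr1:40225080-40317257, plus strand), the signalling receptor for IL-1, had the lowest counts of the 10 genes, at 115 and 54.6 in *Pich*-KO, with 184 and 151 in *Pich*-WT. The groups did not overlap, but the *Pich*-KO samples differed from each other by more than the wild-type samples did. The log2 fold change of -1.06 ± 0.36 (SE) was not called by limma (adjusted p = 0.0871), while DESeq2 on the recovered reads gave an adjusted p of 0.0383. By edgeR the log2 fold change was -1.58 without *Pich*-KO sample 1 (adjusted p = 0.00188) and -0.51 without *Pich*-KO sample 2 (adjusted p = 0.2).

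**Figure D4:**
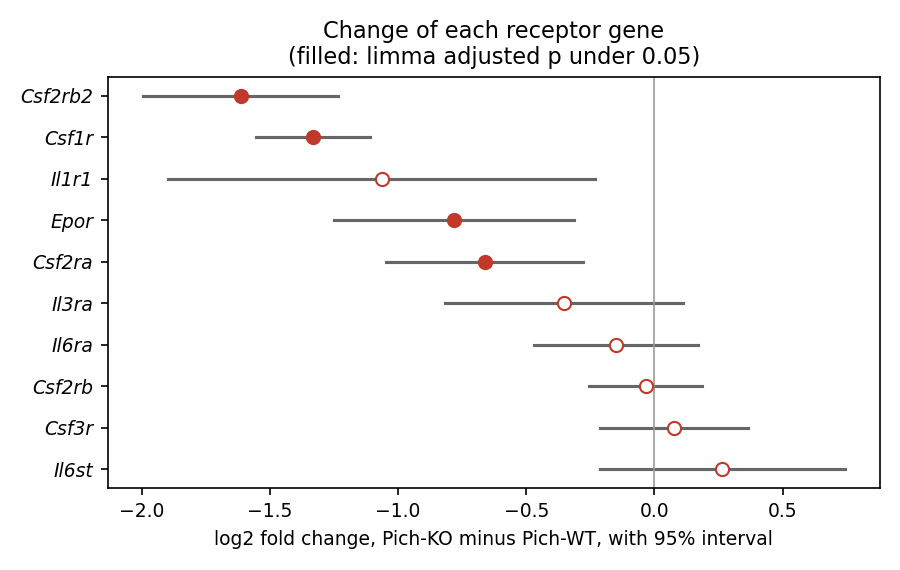
Log2 fold change, *Pich*-KO minus *Pich*-WT, of the 10 receptor genes with 95% intervals from limma, ordered by size; filled circles have an adjusted p under 0.05. *Csf2rb2*, *Csf1r*, *Epor* and *Csf2ra* are filled and negative, and the intervals of *Csf2rb*, *Csf3r*, *Il6ra*, *Il6st* and *Il3ra* include 0.

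Of 16 ligand genes listed for these and related receptors, 13 were tested. Of these 3 were called lower and 2 higher, beside 9.6% and 7.58% of all genes tested. The 3 lower ligands were all of the IL-1 family. *Il1a* fell from 321 and 479 in *Pich*-WT to 30.5 and 2.27 in *Pich*-KO (log2 fold change -5.27, adjusted p = 0.00491, limma). *Il1b* had a log2 fold change of -2.45 and *Il1rn*, the receptor antagonist, one of -1.55. The higher ligands both signal through gp130. *Il6* was at 28.4 and 73.9 in *Pich*-KO, with 10.2 and 13 in *Pich*-WT (log2 fold change 1.91, adjusted p = 0.0436, limma), and *Lif* at 38.2 and 21.6 against 0 and 7 (log2 fold change 3.395, adjusted p = 0.0462, limma). Both counts are low, *Lif* rests on 7 wild-type reads in all, and with a pseudocount of 0.1 or with no filter on the mean neither ligand passed.

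Of the 31 other cytokine and growth factor receptors listed, 9 were called lower and 1 higher, beside 9.6% and 7.58% of all genes tested. Their median log2 fold change was -0.52. The largest falls were those of *Lepr* (-3.84), *Il2rb* (-3.36), *Il13ra1* (-2.59) and *Lifr* (-2.03), the last a partner of gp130. *Il2rb*, the signalling chain for IL-2 and IL-15, went from 1676 and 2088 in *Pich*-WT to 176 and 188 in *Pich*-KO. *Il18rap*, a subunit of the IL-18 receptor, was the one gene called higher, at 551 and 600.2 in *Pich*-KO, with 327 and 386 in *Pich*-WT (log2 fold change 0.69, adjusted p = 0.0241, limma).

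Signal transducers downstream of the receptors changed in both directions. Of 42 listed genes 15 were called lower and 5 higher, beside 9.6% and 7.58% of all genes tested, with a median of -0.28. *Jak2*, the kinase that *Epor* and the beta chains bind, was at 235 and 160.3 in *Pich*-KO, with 1314 and 887 in *Pich*-WT, so that limma called it lower by -2.47 ± 0.25 (SE) on the log2 scale, with an adjusted p = 0.000459. The survival gene *Mcl1* had a log2 fold change of -2.80, and the feedback inhibitors *Socs2* and *Socs3* had -1.59 and -1.58. The highest values among called genes were those of *Traf6* (1.21), a ubiquitin ligase of IL-1 receptor signalling, *Sos1* (1.11), *Ptpn11* (1.04), the phosphatase SHP-2, and *Inpp5d* (0.71), the phosphatase SHIP1. The STAT genes of these pathways did not pass: the log2 fold change was -0.04 for *Stat3*, 0.19 for *Stat5a* and 0.12 for *Stat5b*.

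**Figure D5:**
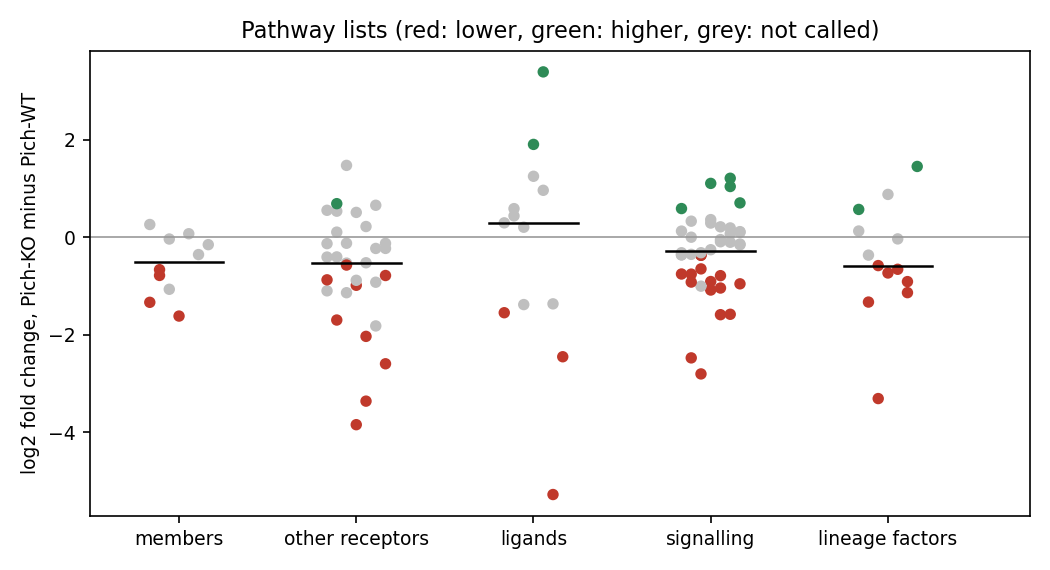
Log2 fold change, *Pich*-KO minus *Pich*-WT, of the tested genes of 5 lists (members are the 10 receptors), with red for genes called lower, green for genes called higher, grey for genes not called and a bar at each median. The medians are -0.51 for the 10 receptors, -0.52 for other receptors, 0.30 for ligands, -0.28 for signalling genes and -0.58 for lineage factors.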

How the data were processed

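Sorted fetal liver LSK cells, 2 *Pich*-KO and 2 *Pich*-WT samples, were profiled with an Illumina TruSeq RNA library kit. The values the authors deposited are a signal: read counts per gene divided by one size factor per sample. Whole reads were recovered from the steps between values (100% of values whole in each sample, within a tolerance of 0.001). The submitters' processing notes name Bowtie 0.12.2 and builds mm8 and mm9, yet 97.8% of the genes found in GENCODE M21 have the same start and end there, and coordinates are given on GRCm38. The counter and the read length are not given in the sources used here. The table's 5 columns of group means and of the authors' own comparison were not used.

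The receptors and gene lists were chosen with earlier results of these data known. Groups were compared with limma 3.58.1 (R 4.3.3) on log2(normalized count + 1), its prior variance fitted as a trend on the mean, for genes averaging at least 1, two-sided, with Benjamini-Hochberg adjustment over all 32428 genes. Fold changes on this scale understate those of low genes. Alternatives were edgeR 4.0.16 with TMM or upper-quartile scaling and DESeq2 1.42.0 on the recovered reads, no variance trend, a pseudocount of 0.1, no filter, at least 10 reads in every sample, a minimum absolute log2 fold change of 1, a replicate block, and each sample left out in turn. Shares of reads were compared by exact permutation tests, with 95% Wilson intervals (scipy 1.17.1). Coding sequences were aligned with Biopython 1.88. Beside the 10 receptors, the text names up to 4 called genes at either end of the log2 fold changes in each pathway list, provided their groups did not overlap. Genes set beside a receptor as ligand, transducer, marker or factor (*Csf1*, *Epo*, *Csf3*, *Il5*, *Klf1*, *Adgre1*, *Cd68*, *Fcna*, *Vsig4*, the granulocyte and monocyte markers, *Irf8*, *Spi1*, the STAT genes) were added once their values were known, as were the LSK markers named. The procedure was tested on simulated counts.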

Additional observations from a re-analysis of the deposited data

How the results depend on the processing

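Over the 8 alternatives that kept all 4 samples and the same call rule, the receptors' log2 fold changes kept their direction in 80 of 80 cases and their side of the threshold in 70, with 8 calls lost and 2, both of *Il1r1*, gained. Without the variance trend limma called 0 genes higher and 0 lower overall and in every list, although 7377 genes and 2 receptors had an unadjusted p under 0.05. With a minimum absolute log2 fold change of 1 the counts were 901 of all genes higher (2.78%) and 2241 lower (6.91%), 2 receptors lower with 2 more calls lost, 5 other receptors lower and 0 higher, and 6 signalling genes lower and 3 higher. With a pseudocount of 0.1, 2 receptors were lower and 0 ligands higher, beside 2651 of 32428 genes lower and 2091 higher. With no filter on the mean, 2 receptors were lower and 0 ligands higher, beside 2326 of 39186 genes lower and 1840 higher. With at least 10 reads in every sample, 4 receptors were lower and 1 ligand higher, beside 3135 of 13924 genes lower and 2937 higher. DESeq2 called 2 other receptors higher, beside 2623 of 39186 genes. With a replicate block 15 other receptors were lower and 2 higher, beside 3874 of 32428 genes lower and 3122 higher. *Il1r1* then had an adjusted p of 0.00405 by limma. For samples with the same number, the correlation of their deviations was 0.0117 over 11794 genes. With 2 pairs only, this cannot show whether such samples shared more than a number. Leaving out each sample in turn, limma called 0 genes in every list, while edgeR called 1717 to 3685 genes higher and 2270 to 3917 lower, 2 to 5 receptors lower and 0 or 1 higher. The difference in the *Csf2rb2* share ran from -14.5 to -12.8 points and that in the *Il6ra* share from -10.4 to -2.92 points. Leave-one-out values near 0 turned: *Csf2rb*, at -0.093 without *Pich*-WT sample 2, went to 0.027 (limma) or 0.037 (edgeR) without *Pich*-WT sample 1 and 0.026 (edgeR) without *Pich*-KO sample 2, *Csf3r*, at 0.179 without *Pich*-WT sample 1, went to -0.029 (limma) without *Pich*-WT sample 2, and *Il6ra*, at -0.309 without *Pich*-KO sample 2, went to 0.011 (limma) or 0.043 (edgeR) without *Pich*-KO sample 1. Over the alternatives on all samples other than the fit without a trend, adjusted p-values were at most 0.00325 for *Csf1r* and 0.0054 for *Csf2rb2* and ran from 0.000137 to 0.0973 for *Epor*, 0.000186 to 0.0845 for *Csf2ra* and 0.00405 to 0.174 for *Il1r1* (limma, edgeR or DESeq2). The causes were not tested. With 2 samples a group, changes of the size seen for *Il3ra* and *Il6st* could not be told from the spread between samples.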

Other observations

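The growth factor receptors that mark or maintain stem and progenitor cells were chosen for this paragraph after their values had been seen. *Kit*, whose product defines the LSK gate, was at 4447 and 2773 in *Pich*-KO samples 1 and 2 and 2328 and 2513 in *Pich*-WT samples 1 and 2. Both *Pich*-KO values were higher, but the log2 fold change of 0.54 did not pass (adjusted p = 0.114, limma). *Flt3*, the receptor of multipotent and lymphoid-primed progenitors, was at 3648 and 2478 against 4191 and 4481 (log2 fold change -0.53, adjusted p = 0.0723, limma). For both of these genes *Pich*-KO sample 2 was lower than *Pich*-KO sample 1, as it was for *Csf1r*, *Csf2rb2*, *Csf2rb*, *Csf3r* and *Il1r1*. For *Epor*, *Csf2ra*, *Il3ra*, *Il6ra* and *Il6st* it was higher.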
